A study of Mus musculus with 12 samples.

Results

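Negative regulators of T cell receptor (TCR) signalling were followed as a list of 10 genes out of the 56691 gene rows of the count table, found by their Ensembl identifiers in a GRCm38 annotation. They are the inhibitory adaptors Sit1, Lax1 and Pag1, the phosphatases and phosphatase-like proteins Ubash3a, Ubash3b, Ptpn6 and Ptpn22, the ubiquitin ligase Cblb, and the kinases Csk and Dgkz. All 10 were among the 15138 genes tested, and each had at least 149 reads in every library.

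The mice carried the Tg4 transgene, a TCR specific for a peptide of myelin basic protein (MBP), the Nr4a3-Tocky Timer reporter and an Il10-GFP reporter, and were of both sexes and typically 6 to 8 weeks old. All groups were primed with [4Y]-MBP at 4 mg/kg. After 24 h they received their antibodies, followed at 30 min by a rechallenge with the same peptide at 0.4 mg/kg, and spleens were collected 12 h after the rechallenge. The 4 groups of 3 mice received an isotype pool, the anti-PD-L1 clone MIH5, the anti-Lag3 clone C9B7W, or both blocking antibodies together (co-blockade, CB). Live CD4+ T cells that were positive for both the blue and the red form of the Timer protein, which is made when Nr4a3 is transcribed after TCR signalling, were sorted, and 1 3′ mRNA library was made from each mouse. No group without peptide was included, the mice carried a transgenic TCR of 1 specificity, and the measurement describes only cells that had passed the Timer gate.

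Signalling by the TCR starts when the Src-family kinase Lck phosphorylates the receptor and Zap70, and it is held back at several layers. Transmembrane adaptors such as Pag1 and Sit1 bring inhibitory enzymes to the membrane, Csk phosphorylates the inhibitory tyrosine of Lck and Fyn, Ptpn22 and Ptpn6 remove activating phosphates, Cblb attaches ubiquitin to signalling proteins, and Dgkz converts diacylglycerol and so limits the Ras pathway. The messenger level of such a gene does not report the activity of its protein. In bulk libraries, fewer cells that express a gene and less RNA per cell cannot be told apart.

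The 5′ ends of the genes are shown for the 2 adaptors Sit1 and Lax1, because they are adaptors whose CB samples lay below every isotype sample and because NFAT-dependent transcription is the programme the study is concerned with. RefSeq promoters of 300 bases on GRCm38.p6 were matched by symbol for 9 of the 10 genes, and Pag1 had no entry. Each held 250 bases before the start and 50 after it. Where more than 1 start was listed, the most 5′ was used. The start used lay 12301 bases from the annotated gene start for Dgkz and 3635 bases for Ubash3b. For the rest the distance was at most 324 bases. The sequences read 5′ to 3′ on the strand of the gene, and capitals mark each match to the NFAT core letters GGAAA on either strand. The Sit1 promoter lies at chr4:43483660-43483959 on the minus strand, and that of Lax1 at chr1:133690059-133690358 on the minus strand.
Sit1: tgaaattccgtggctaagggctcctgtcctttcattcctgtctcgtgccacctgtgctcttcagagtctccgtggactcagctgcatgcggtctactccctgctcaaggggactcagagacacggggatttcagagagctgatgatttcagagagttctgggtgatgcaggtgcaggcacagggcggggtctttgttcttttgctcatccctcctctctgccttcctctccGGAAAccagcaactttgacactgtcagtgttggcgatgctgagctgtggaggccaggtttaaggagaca
Lax1: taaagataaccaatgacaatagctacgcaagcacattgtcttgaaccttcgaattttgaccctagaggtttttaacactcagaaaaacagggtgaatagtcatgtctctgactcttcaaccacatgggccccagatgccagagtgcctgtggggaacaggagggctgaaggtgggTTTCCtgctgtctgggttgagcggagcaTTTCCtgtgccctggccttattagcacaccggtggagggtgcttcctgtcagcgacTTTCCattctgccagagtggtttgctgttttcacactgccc
The Sit1 promoter held 1 match and the Lax1 promoter held 3. Matches to GGAAA were present in the promoters of 6 of the 9 genes (Sit1, Lax1, Ubash3b, Ptpn6, Cblb and Csk), beside 61.3% of the 27025 promoters of all genes. Neither the AP-1 letters TGANTCA, present in 7.92% of all promoters, nor the E-box CACGTG, present in 7.24%, matched in any of the 9. These are letter matches in a fixed window, and NFAT binding was not measured.

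Levels are given as CPM, the reads of a gene scaled to a common library size after TMM normalization. Reads on genes were between 16449370 and 22151025 per library. Differences are log2 fold changes from edgeR, and a gene was called when the Benjamini-Hochberg adjusted p of edgeR's quasi-likelihood test over all 15138 genes was under 0.05. The plot of CPM by mouse gives the value of each gene in each of the 12 mice.

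**Figure D1:**
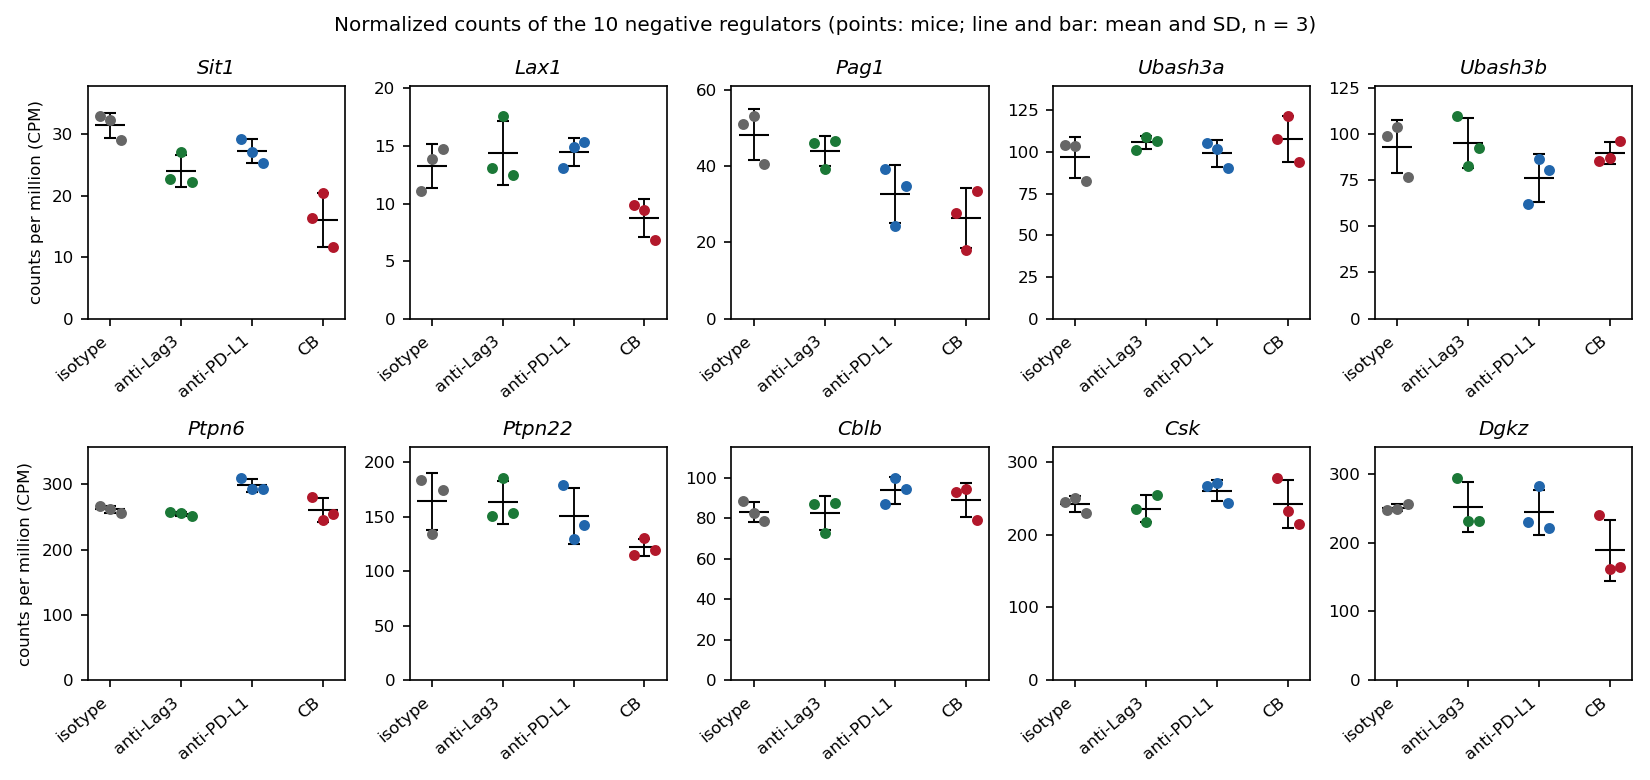
CPM (vertical axes, from 0) of the 10 negative regulators in the isotype, anti-Lag3, anti-PD-L1 and CB groups; each point is 1 mouse, and the horizontal line and bar give the mean and SD of 3 mice. The CB samples of Sit1, Lax1, Pag1, Ptpn22 and Dgkz lie below all isotype samples, while the groups overlap for Ubash3a, Ubash3b, Ptpn6, Cblb and Csk when CB is set against isotype.

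The first question was whether blocking both pathways changed these genes relative to isotype. Sit1 and Pag1, both membrane adaptors, were lower in CB at about 0.51 and 0.55 of the isotype level, and no member was called higher. These 2 of 10 compare with 4.29% of all genes called in either direction and 1.96% called lower. The CB samples lay below all isotype samples for 5 of the 10 (Sit1, Lax1, Pag1, Ptpn22 and Dgkz), beside 9.62% of all genes, and 4 of the 10 had an unadjusted p under 0.05, beside 14.9% of all genes. The median log2 fold change of the 10 was -0.23, and that of all genes tested was 0.

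Sit1 encodes an adaptor that binds the phosphatase Shp2 and dampens TCR signalling (ENSMUSG00000028460, chromosome 4, 43482081 to 43483734, minus strand). Its CPM was 32.9, 32.2 and 29.0 in the isotype mice, 29.2, 27.1 and 25.3 with anti-PD-L1, 22.7, 27.0 and 22.2 under anti-Lag3, and 16.3, 20.3 and 11.6 in CB. All 3 CB samples were below every sample of the other 3 groups, and the anti-Lag3 samples were below the isotype samples. The mean was 31.4 ± 2.06 (SD, n = 3) in isotype and 16.1 ± 4.39 (SD, n = 3) in CB. The log2 fold change in CB against isotype was -0.97 (SE 0.24, 95% confidence interval -1.46 to -0.47, edgeR adjusted p = 0.0164). Without the CB mouse with the lowest level, CB 3, it was -0.78 (edgeR adjusted p = 0.131), and without isotype 1, isotype 2 or CB 1 the adjusted p was 0.0635, 0.0583 and 0.0575.

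Pag1 encodes the adaptor that anchors Csk in the membrane (ENSMUSG00000027508, chromosome 3, 9687479 to 9833679, minus strand). Its CPM was 51.0, 53.0 and 40.6 in isotype, 39.1, 24.3 and 34.7 with anti-PD-L1, 46.0, 39.3 and 46.4 under anti-Lag3, and 27.6, 18.1 and 33.5 in CB. Both groups that received anti-PD-L1 were below all isotype samples, whereas the anti-Lag3 samples overlapped with isotype. The mean was 48.2 ± 6.65 (SD, n = 3) in isotype and 26.4 ± 7.80 (SD, n = 3) in CB, a log2 fold change of -0.87 (SE 0.23, 95% confidence interval -1.33 to -0.41, edgeR adjusted p = 0.0220). The call was lost without isotype 1, isotype 2, CB 1 or CB 2, with an edgeR adjusted p of 0.0789, 0.0984, 0.0578 and 0.135; without CB 2, which had the lowest level, the log2 fold change was -0.66.

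Lax1, an adaptor that is phosphorylated on TCR signalling and inhibits it (ENSMUSG00000051998, chromosome 1, 133679091 to 133690108, minus strand), had the fewest reads of the 10, with 149 to 355 per library. Its CPM was 11.1, 13.9 and 14.8 in isotype, 13.1, 14.9 and 15.4 with anti-PD-L1, 13.1, 17.6 and 12.4 under anti-Lag3, and 9.90, 9.47 and 6.87 in CB. All CB samples were below all 9 others, but the difference from isotype did not pass the test (log2 fold change -0.60, SE 0.32, 95% confidence interval -1.25 to 0.06, edgeR adjusted p = 0.385).

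Among the phosphatases, Ptpn22, which dephosphorylates Lck and Zap70 and works with Csk (ENSMUSG00000027843, chromosome 3, 103859795 to 103912247, plus strand), was the only one of the 4 whose CB samples lay apart from isotype. Its CPM was 184, 134 and 174 in isotype, 179, 130 and 142 with anti-PD-L1, 150, 186 and 153 under anti-Lag3, and 115, 131 and 120 in CB. The highest CB sample was close to isotype 2, and the anti-PD-L1 samples overlapped with both groups. The log2 fold change in CB against isotype was -0.43 (SE 0.14, 95% confidence interval -0.71 to -0.15), with an edgeR adjusted p of 0.0802 that missed the threshold. With DESeq2's Wald test the adjusted p was 0.0329, and without isotype 2 the edgeR adjusted p was 0.0306. A sense-intronic gene inside Ptpn22, Gm15472, took 3372 reads over the 12 libraries against 34712 for Ptpn22 itself.

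The other 3 phosphatase genes overlapped between CB and isotype. Ptpn6, which encodes Shp1 (ENSMUSG00000004266, chromosome 6, 124720707 to 124738714, minus strand), had CPM between 255 and 266 in isotype and between 246 and 281 in CB, and a log2 fold change of -0.01 (95% confidence interval -0.20 to 0.19). Ubash3a, whose product Sts-2 has weak phosphatase activity (ENSMUSG00000042345, chromosome 17, 31207873 to 31246892, plus strand), had CPM between 82.4 and 104 in isotype and between 93.7 and 121 in CB, and a log2 fold change of 0.16 (-0.12 to 0.43). Ubash3b, whose product Sts-1 dephosphorylates Zap70 (ENSMUSG00000032020, chromosome 9, 41011098 to 41161697, minus strand), had CPM between 76.7 and 104 in isotype and between 85.3 and 96.5 in CB, and a log2 fold change of -0.06 (-0.37 to 0.25). The intervals of all 3 leave out a change as large as that fitted for Sit1 or Pag1.

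Cblb, a ubiquitin ligase required for T cell tolerance (ENSMUSG00000022637, chromosome 16, 52031225 to 52208048, plus strand), was at 88.6, 82.5 and 78.8 CPM in isotype and at 92.9, 94.4 and 79.2 CPM in CB. The groups overlapped, with a log2 fold change of 0.09 (95% confidence interval -0.18 to 0.37). Csk, the kinase that Pag1 anchors (ENSMUSG00000032312, chromosome 9, 57626646 to 57653631, minus strand), was at 245, 251 and 231 CPM in isotype and at 278, 233 and 214 CPM in CB, with a log2 fold change of -0.00 (-0.23 to 0.22). The intervals of Csk and Pag1 did not overlap, but the difference between the genes was not tested.

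Dgkz, the diacylglycerol kinase (ENSMUSG00000040479, chromosome 2, 91932824 to 91975864, minus strand), was at 247, 249 and 257 CPM in isotype, 231, 282 and 221 with anti-PD-L1, 295, 231 and 231 under anti-Lag3, and 240, 162 and 165 in CB. CB 1 lay close to the isotype samples, and the other 2 CB samples were below all 10 remaining samples. The log2 fold change in CB against isotype was -0.41 (SE 0.14, 95% confidence interval -0.69 to -0.13, edgeR adjusted p = 0.0933). Without CB 1 it was -0.62 (edgeR adjusted p = 0.00764), and with DESeq2's Wald test on all mice the adjusted p was 0.0351.

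**Figure D2:**
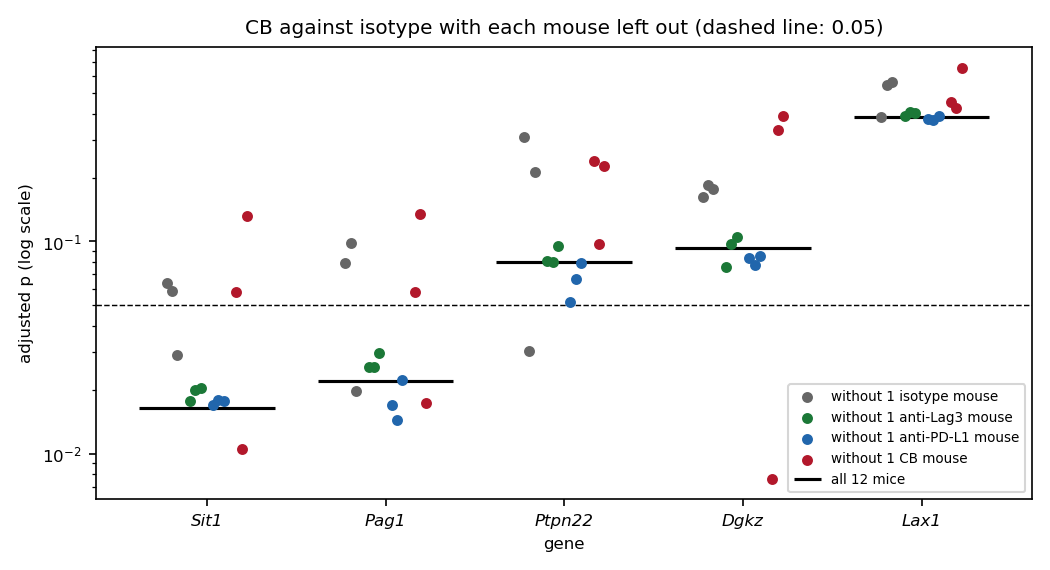
Adjusted p of edgeR's quasi-likelihood test in CB against isotype (vertical axis, log scale) for Sit1, Pag1, Ptpn22, Dgkz and Lax1 with each of the 12 mice left out; colours give the group of the mouse left out, the black lines the value with all 12 mice and the dashed line the threshold of 0.05. Sit1 and Pag1 each lie above the threshold in 4 of the 12 fits, Ptpn22 and Dgkz each lie below it in 1, and Lax1 lies above it in all.

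The single antibodies were compared with the same isotype mice, so these comparisons and the one for CB share their controls. With anti-PD-L1 no member was called by edgeR, 1 of 10 had an unadjusted p under 0.05 and DESeq2's Wald test called 0; of all genes 0.0330% were called by edgeR, 7.84% had such a p and 0.370% were called by DESeq2. The 1 was Pag1, with a log2 fold change of -0.56 (SE 0.22, edgeR adjusted p = 0.534). The anti-PD-L1 samples did not overlap with isotype for Pag1, which was lower, and Ptpn6, which was higher, 2 of 10 beside 11.8% of all genes. Ptpn6 was at 310, 292 and 293 CPM with anti-PD-L1, and its log2 fold change was 0.19 (95% confidence interval -0.00 to 0.39, edgeR adjusted p = 0.593).

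With anti-Lag3, 0 members were called by edgeR, 0 had an unadjusted p under 0.05 and 0 were called by DESeq2, while 0% of all genes were called by edgeR, 5.21% had such a p and 0.0595% were called by DESeq2. Sit1 was the 1 member whose samples did not overlap with isotype, beside 10.1% of all genes. Its log2 fold change was -0.39 (SE 0.24, 95% confidence interval -0.88 to 0.10, edgeR adjusted p = 0.807). For the other 9 genes the log2 fold changes lay between -0.13 (Pag1) and 0.13 (Ubash3a). Set side by side against isotype, the log2 fold changes under anti-PD-L1, under anti-Lag3 and in CB were -0.21, -0.39 and -0.97 for Sit1, and -0.56, -0.13 and -0.87 for Pag1.

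**Figure D3:**
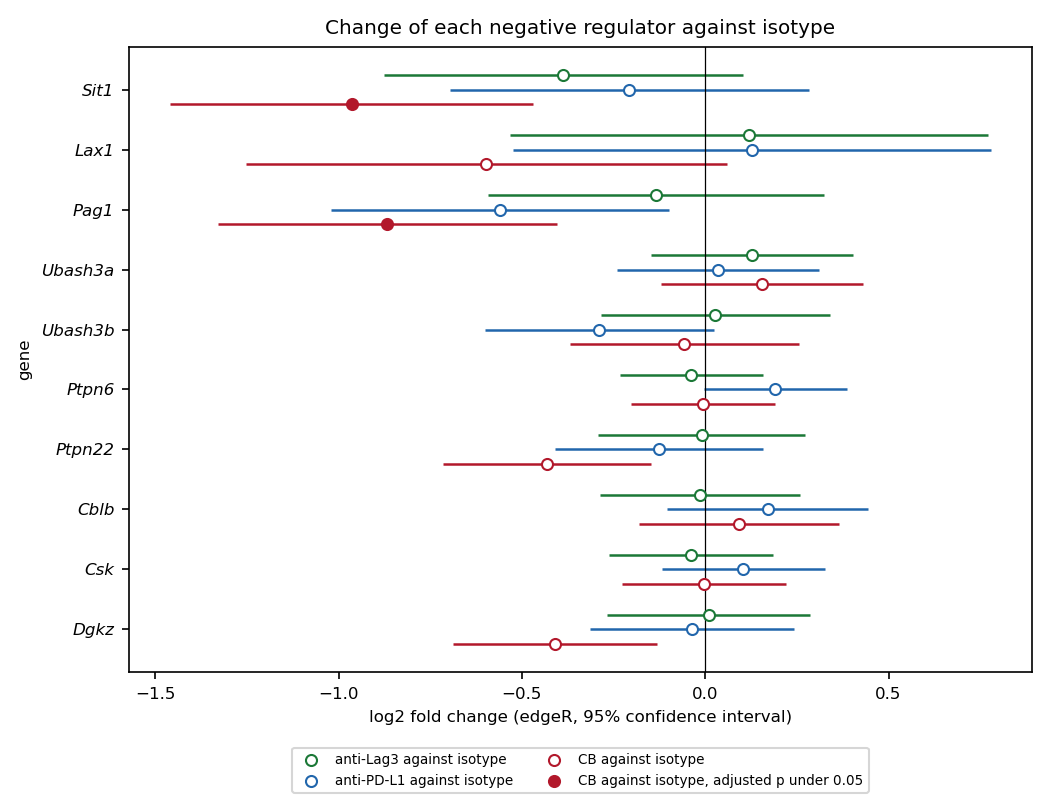
Log2 fold change of each of the 10 genes against isotype (horizontal axis, edgeR) with its 95% confidence interval, for anti-Lag3, anti-PD-L1 and CB; filled points passed an adjusted p of 0.05. Only Sit1 and Pag1 in CB are filled; the Lax1 intervals are the widest, and the Ptpn22 and Dgkz intervals for CB do not reach 0.

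CB was also set against each single antibody. Against anti-PD-L1, 0 members were called by edgeR or by DESeq2, beside 0.370% and 1.18% of all genes, and 5 had an unadjusted p under 0.05 (Sit1, Dgkz, Lax1, Ptpn22 and Ptpn6), all at lower levels in CB, beside 9.08% of all genes. The CB samples lay below all anti-PD-L1 samples for Sit1, Lax1 and Ptpn6, 3 of 10 beside 5.75% of all genes. Sit1 had the smallest p, at a log2 fold change of -0.76 (SE 0.24, edgeR adjusted p = 0.233), and Pag1 was at -0.31 (95% confidence interval -0.77 to 0.15).

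Against anti-Lag3, 0 members were called by edgeR or by DESeq2, beside 0.694% and 1.85% of all genes, and 5 had an unadjusted p under 0.05 (Pag1, Dgkz, Ptpn22, Sit1 and Lax1), again all lower in CB, beside 9.46% of all genes. Sit1, Lax1, Pag1 and Ptpn22 had all CB samples below all anti-Lag3 samples, 4 of 10 beside 7.09% of all genes. Pag1 was at -0.73 (SE 0.22, edgeR adjusted p = 0.158) and Sit1 at -0.58 (SE 0.24, edgeR adjusted p = 0.420). Dgkz was at -0.42 (edgeR adjusted p = 0.202), and without CB 1 at -0.63 (edgeR adjusted p = 0.0244).

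Between the single antibodies, 0 members were called by edgeR or by DESeq2, beside 0% and 0.0661% of all genes, and 2 had an unadjusted p under 0.05, beside 4.69% of all genes. These were Ptpn6, at a log2 fold change of 0.23 in anti-PD-L1 against anti-Lag3 (edgeR adjusted p = 0.802), and Ubash3b, at -0.32 (edgeR adjusted p = 0.802). Ptpn6 (higher) and Pag1 (lower) did not overlap, 2 of 10 beside 8.70% of all genes.

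To separate the antibodies, the 6 mice with anti-PD-L1 were compared with the 6 without it, averaging over anti-Lag3. Pag1 was lower with anti-PD-L1, by a log2 fold change of -0.65 (SE 0.16, 95% confidence interval -0.97 to -0.32, edgeR adjusted p = 0.0280), and was the 1 member called; 1.91% of all genes were called and 0.852% were called lower. DESeq2 called the same gene lower, beside 1.54% of all genes. Its CPM was 18.1 to 39.1 in the 6 mice with anti-PD-L1 and 39.3 to 53.0 in the 6 without, so that the sets came close but did not overlap. The call was lost in 7 of 12 fits with 1 mouse left out, with a log2 fold change between -0.75 and -0.54 and an edgeR adjusted p of up to 0.0785. Ptpn22 (-0.27), Dgkz (-0.23) and Sit1 (-0.39) also had an unadjusted p under 0.05, which makes 4 of 10 beside 13.9% of all genes.

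In the same comparison for anti-Lag3, 0 members were called by edgeR and 1 by DESeq2, beside 0.502% of all genes by edgeR and 0.931% called lower by DESeq2, and 1 had an unadjusted p under 0.05, beside 11.1%. That was Sit1 in both tests, at -0.57 (SE 0.17, 95% confidence interval -0.92 to -0.23, edgeR adjusted p = 0.146, DESeq2 adjusted p = 0.0332). For Pag1 the value was -0.22 (-0.55 to 0.10).

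The interaction asks whether the difference made by CB departs from the sum of the single-antibody differences on the log2 scale. For it 0 members were called by edgeR, 0 had an unadjusted p under 0.05 and 0 were called by DESeq2; 0% of all genes were called by edgeR, 5.93% had such a p and 0.0330% were called by DESeq2. Sit1 was at -0.37 (SE 0.34, 95% confidence interval -1.06 to 0.32), Pag1 at -0.17 (-0.82 to 0.48), Dgkz at -0.38 (-0.78 to 0.01) and Lax1 at -0.84 (SE 0.45, -1.77 to 0.08). These intervals are wide enough to hold both no departure and a departure as large as the CB difference of Lax1 or Dgkz itself. With 3 mice per group the levels of Sit1 and Pag1 in CB could therefore not be told apart from the sum of the single-antibody differences.

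Ordered by group mean, Sit1 ran from CB through anti-Lag3 and anti-PD-L1 to isotype, and Pag1 from CB through anti-PD-L1 and anti-Lag3 to isotype. No neighbouring pair in either order passed edgeR's adjusted threshold. The ratio of the highest to the lowest group mean was 1.95 for Sit1, 1.83 for Pag1 and 1.65 for Lax1, against 1.10 for Csk and 1.11 for Ubash3a. The coefficient of variation over the 12 mice was between 7.58% (Ptpn6) and 28.3% (Pag1), and the 3 adaptors had the 3 highest values. This coefficient also holds the differences between the groups. The 3 adaptors had the lowest mean levels of the 10 as well, at 12.7 to 37.8 CPM beside at least 87.1 CPM for the others.

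The 10 genes were then set beside other genes of the pathway in CB against isotype. Of 27 proximal TCR signalling genes, 6 were called lower and 0 higher by edgeR, and 11 lower and 0 higher by DESeq2; of all genes 1.96% were called lower by edgeR and 3.01% by DESeq2. Their median log2 fold change was -0.26, and 21 of 27 were below 0, beside 49.5% of all genes. The 6 were Themis (-1.09), an adaptor that tunes TCR signal strength, the Tec-family kinase Txk (-0.74), the adaptors Grap2 (-0.53) and Skap1 (-0.51), the coreceptor Cd4 (-0.50) and the receptor chain Cd3e (-0.39). Among kinases and scaffolds on which the inhibitors act, the intervals of Lck (-0.16, 95% confidence interval -0.37 to 0.04), Lat (0.02, -0.21 to 0.25) and Zap70 (0.19, -0.06 to 0.44) included 0. That of Fyn, which Csk also phosphorylates, lay below 0 (-0.28, -0.51 to -0.06). Fyn was not called by edgeR (adjusted p = 0.164) but was called lower by DESeq2. Genes that promote TCR signalling were also among those called lower in the samples in which Sit1 and Pag1 fell.

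Of 33 further negative regulators, 32 were tested, 3 were called lower and 0 higher by edgeR, and 5 lower and 0 higher by DESeq2 (which gave 5 of the 32 no adjusted p), beside the same 1.96% and 3.01% of all genes, with a median of -0.12. All 3 came from the 6 kinases and GTPase-activating proteins: Dgka (-0.65, edgeR adjusted p = 6.21e-04), the other main diacylglycerol kinase of T cells, and the Ras- and Rap-inactivating proteins Rasa3 (95% confidence interval -1.33 to -0.67, edgeR adjusted p = 3.47e-04) and Rasal3 (log2 fold change -0.55, edgeR adjusted p = 0.0245). The 2 that DESeq2 added were the adaptor Dok2 (edgeR -0.80, adjusted p = 0.0790) and the ligase Dtx1 (edgeR -0.46, adjusted p = 0.0834). Of 10 further phosphatases 0 were called by either tool and 0 had an unadjusted p under 0.05 with edgeR; 8 of them were above 0, beside 48.8% of all genes. Of 10 further ubiquitin ligases and their adaptors, all were below 0, beside 49.5% of all genes, and edgeR called 0. An unadjusted p under 0.05 was found for 2 of the 10 (Cbl at -0.43 and Dtx1), which is near the 14.9% of all genes.

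Of 15 inhibitory receptors, 14 were tested and 1 was called lower by both tools. That was Pecam1 (-0.90, edgeR adjusted p = 0.00340), an adhesion receptor with inhibitory motifs. Of all genes 1.96% were called lower by edgeR and 3.01% by DESeq2. For 4 of the 14 receptors DESeq2 gave no adjusted p. The receptors of the blocked pathways were not called: Pdcd1, which encodes PD-1, was at 0.33 (95% confidence interval -0.20 to 0.85) and Lag3 at 0.60 (-0.53 to 1.73), and Ctla4 was at 0.30 (-0.10 to 0.70). The median of the 14 was -0.04. With against without anti-PD-L1, edgeR called lower 1 of the 27 proximal genes (Themis) and 2 of the 32 further regulators (Dgka and Rasa3). It also called 1 of the 14 receptors lower (Pecam1), beside 0.852% of all genes. Txk, Grap2, Skap1, Cd4, Cd3e and Rasal3, called lower in CB against isotype, were not called there by edgeR. DESeq2 called 5 proximal genes lower there (Cd3e, Cd247, Txk, Plcg1 and Themis), beside 1.54% of all genes. It also called 3 further regulators (Dtx1, Dgka and Rasa3) and 1 receptor (Pecam1) lower. For 6 further regulators and 5 receptors it gave no adjusted p. Of the members, Pag1 was called lower there and Sit1 was not (edgeR adjusted p = 0.289). With against without anti-Lag3, edgeR called 0 proximal genes, 0 further regulators and 0 receptors, beside 0.502% of all genes. DESeq2 called 5 proximal genes lower (Cd4, Grap2, Grb2, Skap1 and Themis), beside 0.931% of all genes. It also called 3 further regulators lower (Dgka, Rasa3 and Rasal3) and 0 receptors. For 2 proximal genes, 13 further regulators and 5 receptors it gave no adjusted p.

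**Figure D4:**
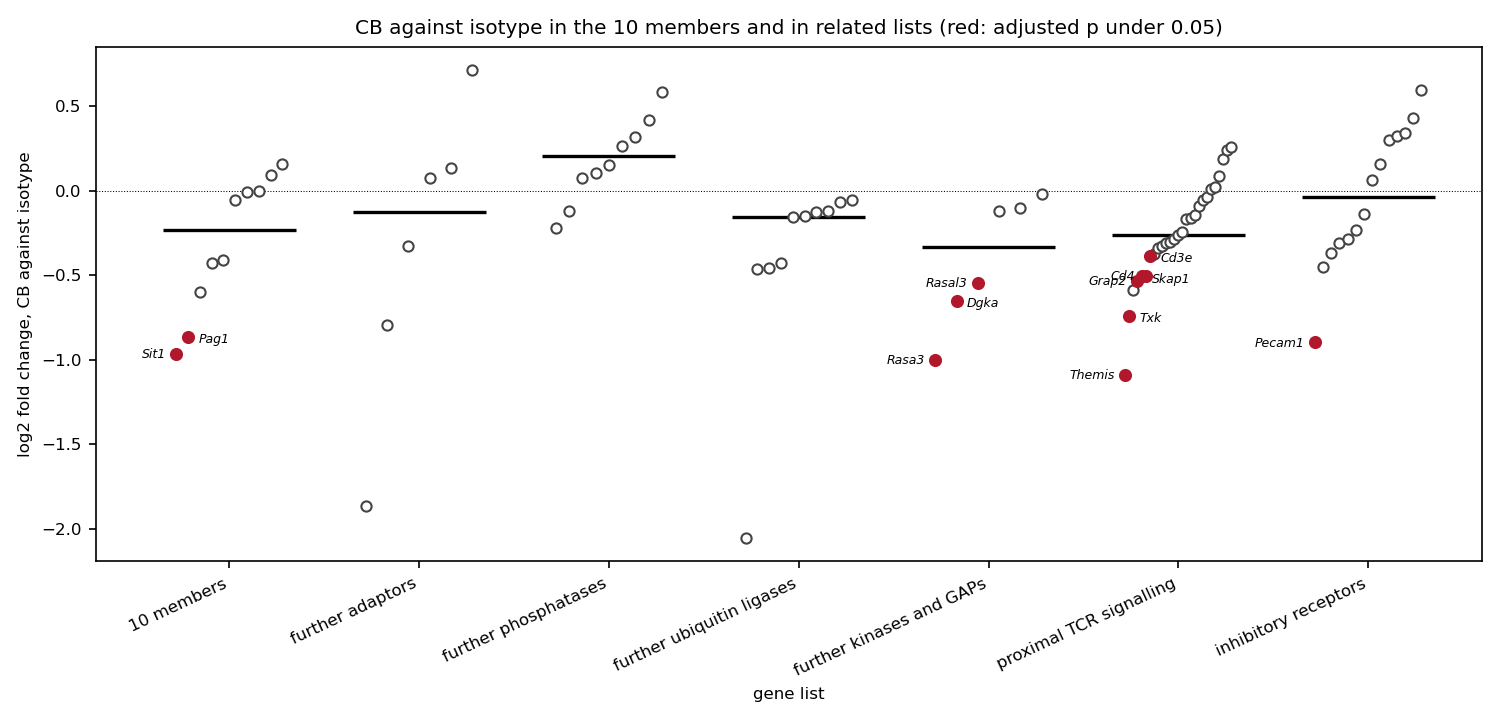
Log2 fold change in CB against isotype (vertical axis, edgeR) of the 10 genes and of the further adaptors, phosphatases, ubiquitin ligases, kinases and GTPase-activating proteins (GAPs), proximal TCR signalling genes and inhibitory receptors; each point is 1 gene in ascending order, red points passed an adjusted p of 0.05 and lines are medians. All red points are below 0; Ptprj, a phosphatase with 0 reads in isotype, is left out of the points.

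The sorted cells carried CD4 T cell markers at a summed level of 1954 to 2392 CPM over the 12 mice. That sum of 7 genes was 2223 to 2392 CPM in isotype and 1954 to 2139 CPM in CB, and 2 of the 7 (Cd4 and Cd3e) were among the genes called lower. Of the markers of other cell types, only the erythroid Hbb-bs and Hbb-bt were called: the 5 erythroid genes summed to 241 to 449 CPM in isotype and 150 to 198 CPM in CB. The 2 CD8 genes summed to 40.9 to 45.3 CPM and 25.05 to 33.2 CPM, nearly all Cd8b1 (log2 fold change -0.50, edgeR adjusted p = 0.242). The 8 myeloid genes summed to 11.01 to 16.2 CPM in isotype and 5.82 to 12.3 CPM in CB, and the 6 B cell genes to 7.70 to 19.9 CPM and 6.02 to 25.5 CPM, so that both sums overlapped between the groups. The 4 NK genes stayed at or under 4.70 CPM, the 4 dendritic cell genes at or under 4.24 CPM with Xcr1 at 0 reads, the 3 platelet genes at or under 3.31 CPM, and the 3 plasma cell genes were at 24.4 to 51.2 CPM, mostly Xbp1. Their part in the lower levels of Sit1 and Pag1 in CB was not tested.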

How the data were processed

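Libraries of 3′ mRNA ends without molecular identifiers were sequenced from 12 mice, 1 each. Per the submitters' processing notes, the authors trimmed reads with cutadapt 1.18, aligned them with STAR 2.6.1a to GRCm38 and counted them with featureCounts 1.6.4; the annotation release and strand setting are not given in the sources used here, so reads of genes that overlap on opposite strands may not be separated. The deposited counts are raw whole numbers for 56691 genes and 114 spike-in rows, which were left out. A deposited table of rlog values was not used, and the number of sample columns not used is 0. PCR copies cannot be removed, so read counts are not counts of molecules.

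Genes with at least 30 reads in sum were fitted in edgeR 4.0.16 (R 4.3.3, limma 3.58.1) with TMM scaling, 4 group means and no covariates, by quasi-likelihood tests with Benjamini-Hochberg adjustment over all 15138 genes. Group means and contrasts gave 6 pairwise comparisons, the 2 averaged antibody comparisons and the interaction. GENCODE (GRCm38) supplied symbols for 52073 genes. Levels are TMM-scaled counts per gene in CPM. Alternatives were DESeq2 1.42.0 (Wald tests against 0 and against 0.2 on the log2 scale), edgeR against 0.2, DESeq2 size factors, no filter, filterByExpr, only the groups compared, the replicate number as a block and each mouse left out. No libraries of a group were duplicates.

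The methods describe sorting in batches of 4 with a different CD4 label for each condition. The paper describes the second axis of its principal component analysis as largely reflecting batch sorting. The labels do not tie mice to batches, so replicate numbers were not treated as pairs in the main fit. With the replicate number as a block, 4 members rather than 2 were called in CB against isotype. The 10 genes, the further lists, the markers and the rule to name all members, called genes of the lists and the genes central to them were chosen with earlier results of these data known; replicates are separate mice.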

Additional observations from a re-analysis of the deposited data

How the results depend on the processing

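In CB against isotype, 2 of the 10 genes were called. The count was 4 with DESeq2's Wald test, 4 without a filter on low counts and 4 with the replicate number as a block (Ptpn22 and Dgkz joined Sit1 and Pag1 each time), 1 when edgeR tested against 0.2 on the log2 scale and 0 when DESeq2 did. With 1 mouse left out it was 0 to 2: 0 without isotype 1 and 1 without isotype 2 (Ptpn22), CB 1 (Dgkz), CB 2 (Sit1) or CB 3 (Pag1), so that neither original call was kept without isotype 1, isotype 2 or CB 1. In CB against anti-Lag3, where 0 were called, 2 were called without a filter (Pag1 and Dgkz), 1 with the replicate block (Dgkz) and 0 to 1 with 1 mouse left out (Dgkz without CB 1). With against without anti-PD-L1, the 1 call of Pag1 became 0 under both tests against 0.2, and was 0 to 1 with 1 mouse left out, 0 without isotype 1, isotype 2, anti-PD-L1 2, anti-Lag3 1, anti-Lag3 3, CB 1 or CB 2. With against without anti-Lag3, 0 became 1 (Sit1) with DESeq2's Wald test. The causes were not tested. The other counts of called members stayed within 1.5 times, and no called gene changed direction in any alternative run. Over all genes, the 649 called in CB against isotype ranged from 233 to 918 over the alternatives and from 394 to 705 with 1 mouse left out. With 1 mouse left out, the 56 genes called in CB against anti-PD-L1 became 4 to 57, the 105 in CB against anti-Lag3 42 to 125, the 289 with against without anti-PD-L1 181 to 302, the 76 with against without anti-Lag3 39 to 95, and the 5 in anti-PD-L1 against isotype 0 to 10, so the shares of all genes called move with single mice.

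The numbers 1 to 3 of the mice were not treated as pairs, because the labels do not tie them to sort batches. Deviations of same-numbered samples from their group means correlated at -0.06 to 0.12 over 18 pairs, with 2 above 0.1. The median was 0.060, beside -0.015 over 36 pairs of different number and group. Of 12 samples, 10 correlated best with a sample of their own number. Whether same-numbered mice shared a sort batch was not tested. Lax1, with as few as 149 reads in a library, had the least precise fold changes of the 10.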
